A study of Mus musculus with 8 samples.

Results

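The RIP kinases and the genes of necroptosis around them were followed in liver RNA of mice that lack the kinase TAK1 and, in addition, either caspase 8 or the necroptosis kinase RIP3. The 10 members, out of 19560 genes measured, were chosen by name: Ripk3, which encodes RIP3, its relatives Ripk1, Ripk2 and Ripk4, the pore-forming effector Mlkl, the nucleic acid sensor Zbp1, the deubiquitinase Cyld, the mitochondrial phosphatase Pgam5, the adaptor Ticam1 and the receptor Tlr3. All 10 were measured, by 98 probe sets in all, and none was removed by a filter. Whole liver of male mice aged 6 weeks was hybridised to Affymetrix mouse gene arrays, with 4 mice per group. In the group named Tak1/Casp8 here, both TAK1 and caspase 8 were knocked out in LPC, the usual short form for liver parenchymal cells, which the labels do not spell out. In the other group, Tak1/Rip3, TAK1 was knocked out in LPC and both Rip3 alleles were null, a genotype written without a cell type. All 8 mice therefore carried the TAK1 deletion in LPC, and livers with TAK1 intact were not analysed here. The sources used here name neither the promoter driving the deletions, nor the exons removed, nor the litters. The comparison was made to find genes that apoptotic and necrotic signals regulate differently. Every difference below is Tak1/Casp8 minus Tak1/Rip3, on the log2 scale of RMA intensities, with its standard error and 4 mice per group. With no TAK1-intact liver to compare, which of the 2 genotypes departs from normal cannot be told apart.

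Necroptosis is a regulated form of necrosis that cells can enter when caspase 8 is blocked. RIPK1, recruited to the TNF receptor, binds RIPK3 through a motif that ZBP1 and TRIF, the product of Ticam1, also carry, so that death receptors, nucleic acids and TLR3 can all reach RIPK3. RIPK3 phosphorylates the pseudokinase MLKL, which then assembles at the plasma membrane and ruptures it, whereas active caspase 8 cleaves RIPK1 and RIPK3 and turns the signal to apoptosis. In liver, TAK1 restrains both routes, and hepatocytes are usually described as low in RIPK3.

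Array medians lay between 8.06 and 8.16, and the lower quartile of single probe sets between 6.47 and 6.52. The arrays least correlated with their own group were Tak1/Casp8 replicate 4 and Tak1/Rip3 replicate 2. None of 10 hepatocyte markers passed in limma (adjusted p under 0.05), with a mean level of 13.07 to 13.15 in the Tak1/Casp8 livers and 12.95 to 13.11 in the Tak1/Rip3 livers, and of the 10 Kupffer cell and macrophage markers none did (10.28 to 10.70 against 10.22 to 10.69). Among 10 monocyte and neutrophil markers Cxcr2, the neutrophil chemokine receptor, was higher (0.87 ± 0.17, adjusted p = 0.0124), and the other 9 did not pass, from -0.47 in Ly6c2 to 0.41 in S100a9, with a mean level of the list of 6.62 to 7.13 against 6.49 to 6.94. All 8 stellate cell markers were negative and 2 passed, Lrat and Reln, where 6.69% of all genes passed. The mean levels of that list just failed to overlap (9.85 to 10.47 against 10.49 to 10.80). Of the 10 T and NK cell markers 9 were negative and none passed, and their mean levels did not overlap either (6.18 to 6.31 against 6.38 to 6.57). Of 6 B and plasma cell markers Jchain was higher and Cd79a and Ms4a1 lower (6.68 to 6.91 against 6.77 to 7.03), and of 7 bile duct markers Spp1 was higher (8.07 to 8.97 against 8.40 to 8.66). None of 7 endothelial markers passed. The part of these cell types in the results below was not tested. Casp8 was lower in its own knockout by 1.31 on the log2 scale (9.97 ± 0.13 SD against 11.27 ± 0.13), and Map3k7, which encodes TAK1 and was targeted in both groups, differed by -0.08 ± 0.10 (adjusted p = 0.695).

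Of the 10 members only Ripk3 differed between the groups at an adjusted p under 0.05, beside 6.69% of all genes. Ripk3 is the gene deleted in the Tak1/Rip3 group, so its call is no finding about the family, and none of the other 9 passed. The other 9 had adjusted p-values from 0.123 to 0.861, and 4 of them had an unadjusted p under 0.05, as did 21.1% of all genes. In 3 members, Ripk3, Ripk1 and Ripk2, the groups did not overlap at all, as was the case in 14.6% of all genes. The median difference of the 10 members was 0.17, and 0.12 without Ripk3, against 0.012 over all genes. The 95% intervals of the 9 other members reached 0.19 to 0.38 to either side of the estimate. In Ripk1, Ripk2, Ripk4 and Pgam5 the interval did not include 0, yet they missed the adjusted threshold with 4 arrays per group.

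**Figure D1:**
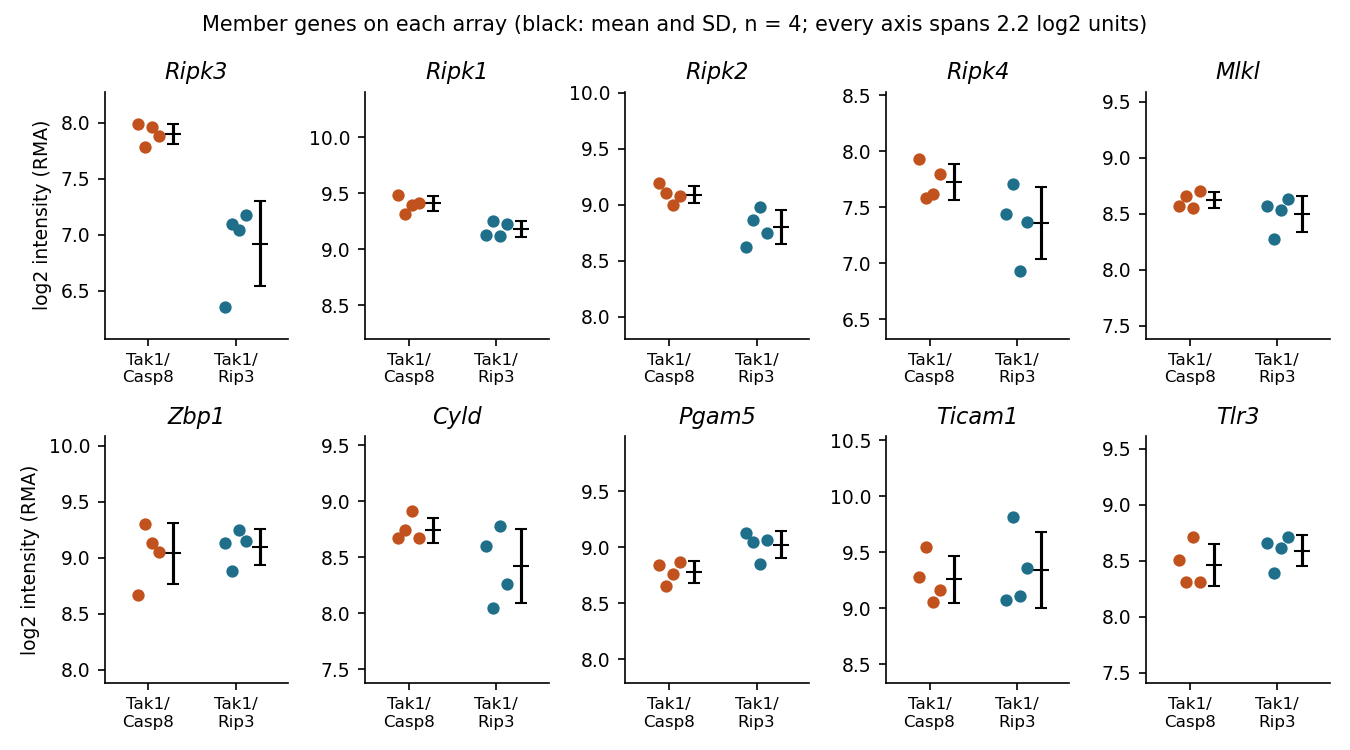
Log2 RMA intensity (y axis, spanning 2.2 log2 units in every panel) of the 10 members on each of the 8 arrays, by group, with the group mean and SD (n = 4) in black. In Ripk3 the Tak1/Casp8 values, 7.78 to 7.99, lie above all Tak1/Rip3 values, 6.36 to 7.18, and in most other members the groups overlap.

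The Ripk3 signal of the Tak1/Casp8 livers was 1.97-fold that of the Rip3-null livers. Its level was 7.99, 7.78, 7.96 and 7.88 in the Tak1/Casp8 livers and 6.36, 7.10, 7.04 and 7.18 in the Tak1/Rip3 livers. The groups did not overlap, and Tak1/Rip3 replicate 1 lay well below the other 3 knockouts. The difference was 0.98 ± 0.17 (adjusted p = 0.00782, 95% interval 0.61 to 1.35), and 0.80 ± 0.10 (adjusted p = 0.0048) without that array. The Tak1/Rip3 livers carry the Rip3-null genotype, so a lower Ripk3 signal there was built into the design. As whole liver was measured, any further part of fewer cells of a type or of less RNA per cell cannot be told apart. With only its brightest probe set Ripk3 was not called (-0.04 ± 0.24, adjusted p = 0.954), nor was it in a test that borrowed no variance from other genes (adjusted p = 0.150).

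The 10 Ripk3 probe sets, numbered in the order of their IDs from 10420199 to 10420208, gave differences from -0.04 to 2.17. Tests of whether they depart from each other are given below. The widest gap was at the fourth, 10420202, with 8.33, 7.90, 7.97 and 7.58 in the Tak1/Casp8 livers and 5.01, 6.34, 6.01 and 5.72 in the Tak1/Rip3 livers. Every knockout there lay under the lower quartile of its array, and every Tak1/Casp8 liver above it. The difference was 2.17 ± 0.28 (adjusted p = 0.0125 over all probe sets), and its size is uncertain because the knockout values lie near background. The seventh, 10420205, had 5.83 to 6.59 (mean 6.35 ± 0.35 SD) against 4.42 to 5.19 (4.84 ± 0.35) (1.51 ± 0.23, adjusted p = 0.0198). The groups were apart by over 1 log2 unit in their means, but both group means were dim, under the lower quartile. The tenth, 10420208, had 8.17, 8.11, 8.04 and 8.32 against 6.36, 7.21, 7.33 and 7.26 (1.12 ± 0.22, adjusted p = 0.0469). These 3 were the Ripk3 probe sets called, beside 1.63% of all 223771. A filter at the 30th percentile removed the fourth and the seventh, and the first, the ninth and the tenth were then called. In 8 of the 10 the groups did not overlap, as in 11.4% of all.

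The sixth Ripk3 probe set, 10420204, was the brightest and gave no difference. It had 9.64, 9.47, 10.00 and 8.82 in the Tak1/Casp8 livers and 9.13, 9.79, 9.68 and 9.48 in the Tak1/Rip3 livers (-0.04 ± 0.26, adjusted p = 0.964), so the knockouts lay inside the range of the other group. The eighth, 10420206, had 8.55, 8.15, 8.22 and 8.29 against 7.73, 8.16, 8.23 and 8.09 (0.25 ± 0.15, adjusted p = 0.482), also with overlap. The remaining 5 probe sets differed by 0.65 to 1.04 without overlap, with adjusted p-values of 0.0652 to 0.201. In the Tak1/Rip3 livers 3 of the 10 had a mean under the lower quartile, and in the Tak1/Casp8 livers 1 had. The exon of each probe set, and whether the deleted part covers it, were not known here, so a probe set that did not differ does not check the knockout.

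Whether single Ripk3 probe sets depart from the rest of the gene was tested over all 204426 probe sets of genes with several. By limma's diffSplice the fourth stood above the rest (1.38, adjusted p = 0.000558) and the sixth below it (-1.07, adjusted p = 0.0156), beside 0.766% of all probe sets called. DiffSplice uses 1 variance for all probe sets of a gene, and in a check on simulated data it also called probe sets that had not been shifted. A shifted probe set moves the others of its gene away from their rest, so that check does not show how often diffSplice errs. In a fit on each probe set minus the mean of the others on the same array, with a variance for each probe set, 0 of the 10 were called in limma and 4 had an unadjusted p under 0.05, beside 0.0895% called of all. There the fourth gave 1.38 ± 0.20 (adjusted p = 0.0737), the eighth -0.76 ± 0.12 (adjusted p = 0.102) and the sixth -1.07 ± 0.24 (adjusted p = 0.234). The count of 3 in the probe set fit was 1, the fourth alone, without Tak1/Casp8 replicate 1, 2 or 3 or Tak1/Rip3 replicate 3. The diffSplice count of 2 was 1, again the fourth, without Tak1/Casp8 replicate 2 or 4 or Tak1/Rip3 replicate 3.

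**Figure D2:**
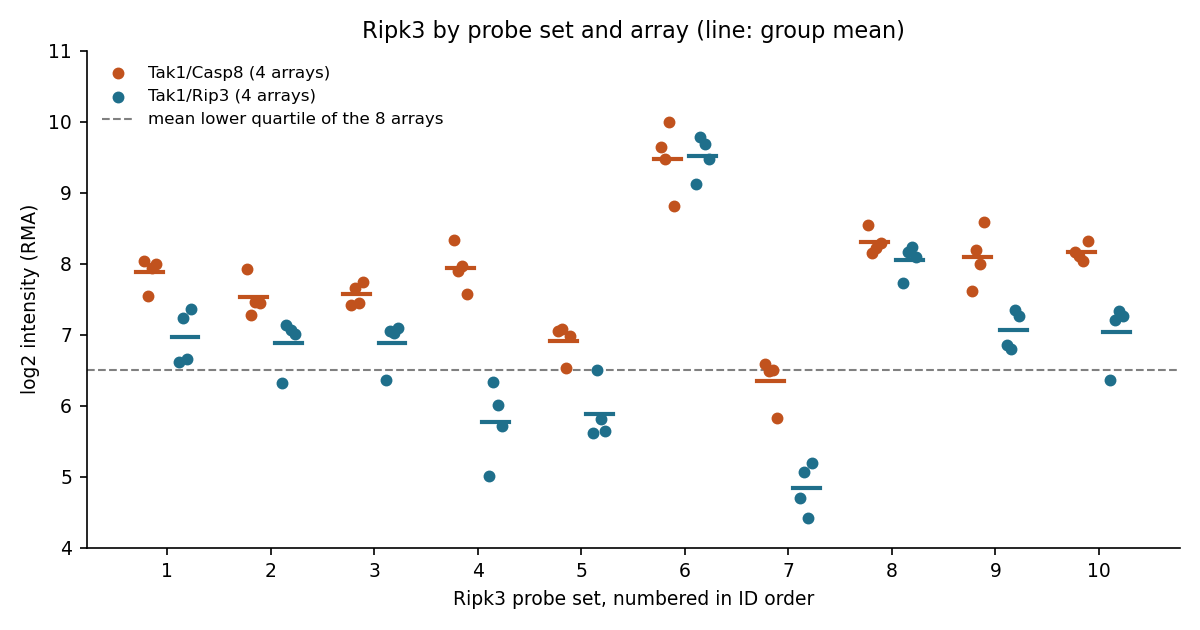
Log2 RMA intensity (y axis) of the 10 Ripk3 probe sets in ID order (x axis) on each of the 8 arrays, with a line at each group mean and a dashed line at the mean lower quartile of the arrays. The gap between the groups is widest at the fourth probe set, 7.94 against 5.77 in mean, and absent at the sixth, 9.48 against 9.52.

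The stretch before the start of Ripk3 is shown because 2 of the 3 DNA methylation genes among its regulators, Uhrf1 and Dnmt1, were lower in the Tak1/Casp8 livers (values below). The third, the demethylase Tet2, differed by -0.12 (adjusted p = 0.674). Methylation of CG pairs at this promoter is known to silence Ripk3 in many cell lines, and was not measured here. The group with the lower Ripk3 signal is the Rip3-null one, and a part of methylation in that difference was not tested. The 250 bases before the gene start, from RefSeq on GRCm38.p6, run 5′ to 3′ along the gene with each CG pair in capitals, and the same stretch of Mlkl follows for comparison.
Ripk3, chr14:55788858-55789107, minus strand: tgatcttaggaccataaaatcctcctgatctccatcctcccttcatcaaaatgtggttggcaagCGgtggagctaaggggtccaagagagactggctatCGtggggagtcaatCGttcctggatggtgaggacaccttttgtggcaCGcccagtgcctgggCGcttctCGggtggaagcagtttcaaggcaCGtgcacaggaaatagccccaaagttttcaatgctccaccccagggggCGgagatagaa
Mlkl, chr8:111338206-111338455, minus strand: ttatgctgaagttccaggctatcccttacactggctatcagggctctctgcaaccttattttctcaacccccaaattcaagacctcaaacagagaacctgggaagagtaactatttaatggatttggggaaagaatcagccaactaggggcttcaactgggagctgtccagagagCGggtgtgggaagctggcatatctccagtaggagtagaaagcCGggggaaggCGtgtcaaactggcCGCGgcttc
The Ripk3 stretch held 8 CG pairs and that of Mlkl 5, against a median of 6 over 32851 such stretches. Of all stretches 57.0% held fewer CG pairs than Ripk3 and 44.4% fewer than Mlkl. Neither count was far from the middle of all genes.

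The genes next to Ripk3 on its chromosome were read as well. Among the 5 genes on each side in the RefSeq table, 7 were measured and none passed in limma. An unadjusted p under 0.05 was found in 3 of the 7, beside 21.1% of all genes. The largest difference was that of Ltb4r1, a leukotriene B4 receptor, with 6.82, 6.90, 6.79 and 6.62 against 6.25, 6.23, 6.66 and 5.95 (0.51 ± 0.14, adjusted p = 0.0632), where 1 knockout overlapped the other group. Khnyn differed by 0.35 ± 0.13 and the adenylate cyclase Adcy4 by -0.19 ± 0.09, neither passing. In Adcy4 the groups did not overlap (8.52 to 8.65 against 8.70 to 8.86), as in 14.6% of all genes. An unmeasured noncoding RNA gene, Gm32092, overlaps Ripk3 in that table, so probes in the shared stretch may not tell the transcripts apart.

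The genes whose profile over the 8 arrays lay closest to that of Ripk3, by root mean square difference of centred values, were Chac1, Cd300e, Gm4951, Ivns1abp and Fosb. Chac1, a glutathione-degrading enzyme of the amino acid stress response, was closest (root mean square difference 0.14), with 8.23 ± 0.10 SD against 7.42 ± 0.31 and a difference of 0.81 ± 0.15 (adjusted p = 0.0103). Cd300e, a receptor of monocytes, had 8.67 ± 0.24 against 7.72 ± 0.35 (0.95 ± 0.18, adjusted p = 0.0123). Of the 5, the immediate early factor Fosb alone did not pass (0.80 ± 0.23, adjusted p = 0.0647). The Ripk3 profile is mostly the step between the genotypes, so genes with a group difference of like size rank close to it. This closeness is a description over 8 arrays, and the differences of these genes are no independent result.

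Ripk1, the kinase that nucleates the necroptotic and the survival complexes at death receptors, did not pass. Its level was 9.49, 9.32, 9.40 and 9.41 in the Tak1/Casp8 livers and 9.13, 9.25, 9.12 and 9.23 in the Tak1/Rip3 livers. The groups were close but did not overlap. The difference was 0.23 ± 0.09 (adjusted p = 0.163), with an interval of 0.03 to 0.42. All 12 of its probe sets differed in the same direction, by 0.14 to 0.48, and none was called (4 at an unadjusted p under 0.05, lowest adjusted p 0.098).

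Ripk2, which carries the signal of the NOD receptors for bacterial wall fragments, had 9.19, 9.10, 9.00 and 9.08 against 8.62, 8.86, 8.98 and 8.75. The lowest Tak1/Casp8 liver lay just above the highest Tak1/Rip3 liver. The difference of 0.29 ± 0.10 had the smallest adjusted p of the 9 members other than Ripk3 (0.123), and 8 of its 9 probe sets were positive, from -0.15 to 0.44. Ripk4, a kinase of epidermal differentiation, had 7.93, 7.58, 7.62 and 7.80 against 7.44, 7.71, 6.93 and 7.37, with overlap (0.37 ± 0.16, adjusted p = 0.214). Its probe sets disagreed, from -0.45 to 0.37 with 6 positive and 3 negative, and its brighter probe sets gave 0.00 ± 0.14. The profiles closest to that of Ripk4 were those of Tmc3, Clec4f, Ctxn1, Kcnk10 and Hnf4g, and none of the 5 passed.

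Mlkl, the effector that RIPK3 activates, differed little. Its level was 8.57, 8.66, 8.55 and 8.70 in the Tak1/Casp8 livers and 8.57, 8.27, 8.53 and 8.63 in the Tak1/Rip3 livers. The groups overlapped, with Tak1/Rip3 replicate 2 the lowest. The difference was 0.12 ± 0.10 (adjusted p = 0.547), its interval ran from -0.10 to 0.35, and its 10 probe sets ranged from -0.10 to 0.48. Without Tak1/Rip3 replicate 2 it was 0.05. Pgam5, a phosphatase of the mitochondrial membrane once placed downstream of RIPK3, had 8.84, 8.65, 8.76 and 8.87 against 9.13, 9.05, 8.85 and 9.06. Here 3 of the 4 Tak1/Rip3 livers lay above every Tak1/Casp8 liver. The difference was -0.24 ± 0.10 (adjusted p = 0.187), and all 6 probe sets were negative, from -0.31 to -0.05.

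The 3 members that sense nucleic acids or relay that signal showed no called difference. Zbp1, the interferon-inducible sensor that can engage RIPK3 directly, had 8.67, 9.30, 9.13 and 9.05 in the Tak1/Casp8 livers and 9.13, 8.88, 9.25 and 9.15 in the Tak1/Rip3 livers. Its lowest value was that of Tak1/Casp8 replicate 1, and the groups overlapped. The difference was -0.06 ± 0.14 (adjusted p = 0.853, interval -0.37 to 0.25), and 0.06 without that array. Tlr3, the endosomal receptor for double-stranded RNA, had 8.51, 8.31, 8.71 and 8.31 against 8.66, 8.39, 8.61 and 8.71 (-0.13 ± 0.12, adjusted p = 0.592). Of its 10 probe sets 5 were positive and 5 negative, and 3 were under the lower quartile in both groups. Ticam1, the adaptor TRIF behind TLR3, had 9.28, 9.55, 9.06 and 9.16 against 9.07, 9.81, 9.11 and 9.36 (-0.07 ± 0.17, adjusted p = 0.861). Its highest value was that of Tak1/Rip3 replicate 2, and without that array the difference was 0.09.

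Cyld, which removes the ubiquitin chains that hold RIPK1 in the survival complex, was called with one summary of its probe sets and not with another, as Ripk3 was. Its level was 8.67, 8.74, 8.91 and 8.67 in the Tak1/Casp8 livers and 8.60, 8.05, 8.78 and 8.26 in the Tak1/Rip3 livers. One Tak1/Rip3 liver, replicate 3, overlapped the other group. The difference of the medians was 0.32 ± 0.15 (adjusted p = 0.263), and that of the means over probe sets 0.31 ± 0.08 (adjusted p = 0.0392). Of its 17 probe sets 16 were positive, from -0.02 to 0.72, in 5 the groups did not overlap, and none was called (5 at an unadjusted p under 0.05, lowest adjusted p 0.0798). The Cyld promoter is shown because it alone, among the 6 members with a stretch, matches exactly the NF-kB site of the immunoglobulin kappa enhancer. NF-kB is the factor that TAK1 activates, and looser forms of its motif were not searched. No list of NF-kB targets was tested, and the targets named here were picked from the partners with their values known. Among them Birc3 and Tnfaip3 were higher (below), while Tnf differed by 0.02, Tnip1 by -0.19 and Irf1 by 0.02. Il1a differed by -0.55, Fas by 0.38, Cflar by 0.21 and Ifnb1 by 0.1. Of these targets only Birc3 and Tnfaip3 passed. The 250 bases before the start of Cyld come from RefSeq on GRCm38.p6. In capitals is the one match to the NF-kB site of the immunoglobulin kappa enhancer, which lies on the opposite strand.
Cyld, chr8:88696778-88697027, plus strand: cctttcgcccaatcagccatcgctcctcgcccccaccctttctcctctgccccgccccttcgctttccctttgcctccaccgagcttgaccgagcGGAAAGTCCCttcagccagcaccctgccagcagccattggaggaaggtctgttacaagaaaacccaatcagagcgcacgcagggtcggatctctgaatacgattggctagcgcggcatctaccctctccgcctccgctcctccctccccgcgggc
The match begins 155 bases before the gene start. These 10 letters, on either strand, were found in 46 of the 32851 stretches (0.14%), and of the 6 members with a stretch in the table only Cyld held it. The stretches of Birc3 and Tnfaip3 did not hold these letters. A match is a string of letters, and binding was not measured.

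**Figure D3:**
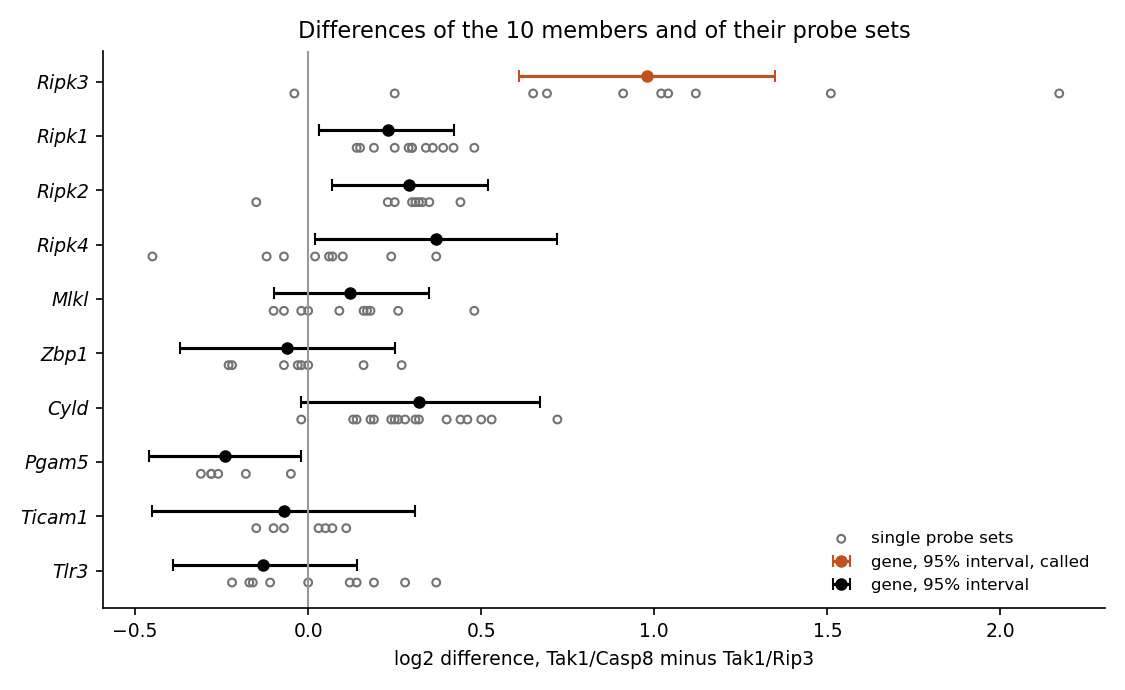
Log2 difference, Tak1/Casp8 minus Tak1/Rip3 (x axis), of the 10 members (y axis) with 95% intervals from limma (filled points, orange where called), and of their single probe sets (open circles). Ripk3 at 0.98 is the only gene called, its probe sets spread from -0.04 to 2.17, and those of Ripk1, Cyld and Pgam5 lie almost all on one side of 0.

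The partners of the members were read from 7 lists of 100 genes, of which 97 were measured. Of these, 13 passed (13.4%, against 6.69% of all genes): 7 higher with caspase 8 deleted, against 2.64% of all genes, and 6 lower, against 4.05%. The deleted gene Casp8 is among the 6. The lists were chosen with earlier results of these data known, so these shares do not measure an enrichment. The median difference of the 97 genes was 0.00. The count was 8 without Tak1/Casp8 replicate 1 and 8 without Tak1/Rip3 replicate 1.

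In the TNF receptor complex, where ubiquitin chains and kinases decide the fate of RIPK1, 2 of 24 genes were higher and 1 lower. Birc3, a ubiquitin ligase that modifies RIPK1, was 1.52-fold higher (9.42 ± 0.15 SD against 8.81 ± 0.18, difference 0.61 ± 0.12, adjusted p = 0.0144). The ubiquitin-editing enzyme Tnfaip3, which restrains RIPK3, was 1.47-fold higher (8.86 ± 0.19 against 8.30 ± 0.26), and the adaptor Traf5 1.38-fold lower (7.42 ± 0.12 against 7.88 ± 0.14). With its brightest probe set Birc3 differed by 0.98 ± 0.32 (adjusted p = 0.136). Birc2, the close relative of Birc3, differed by 0.53 ± 0.23 and did not pass (adjusted p = 0.222). The Tnfaip3 call was lost without any 1 of 6 arrays, all but Tak1/Casp8 replicate 3 and Tak1/Rip3 replicate 4 (adjusted p up to 0.111). Traf5 was lost without any 1 of 6, all but Tak1/Casp8 replicate 2 and Tak1/Rip3 replicate 4 (up to 0.0820), and its brightest probe set gave 0.10.

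In the caspase arm, Casp8 alone of 11 measured genes passed. The death receptor Tnfrsf10b differed by -0.48 ± 0.13 (8.12 ± 0.03 SD against 8.60 ± 0.27, adjusted p = 0.0525). It passed with either filter on dim genes, with the trend and robust fit, with array weights and without Tak1/Rip3 replicate 3 (adjusted p = 0.0178 to 0.0457). Fas differed by 0.38 ± 0.15 (adjusted p = 0.177) and the caspase 8 substrate Bid by 0.23 ± 0.10 (adjusted p = 0.201). None of the 4 other RIP family kinases passed in limma (1 at an unadjusted p under 0.05). They differed by -0.39 ± 0.13 in Lrrk2 (adjusted p = 0.108), -0.11 in Lrrk1, 0.08 in Dstyk and 0.27 in Ankk1.

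Among 29 genes that regulate RIPK3 or MLKL or act after them, 3 were higher and 3 lower. Ppm1b, a phosphatase that removes phosphate from RIPK3, was higher (9.26 ± 0.06 SD against 8.68 ± 0.15, difference 0.58 ± 0.10, adjusted p = 0.00756). The inositol phosphate kinase Ipmk, whose products MLKL needs, was 1.49-fold higher (10.70 ± 0.10 against 10.12 ± 0.17, adjusted p = 0.0121), and Flot1, a flotillin that takes part in removing MLKL from the membrane, 1.42-fold higher (9.06 ± 0.08 against 8.55 ± 0.07, adjusted p = 0.00856). Uhrf1, which guides DNA methylation, was 1.90-fold lower (7.29 ± 0.38 against 8.22 ± 0.17, adjusted p = 0.0129), the methyltransferase Dnmt1 1.42-fold lower (8.70 ± 0.19 against 9.21 ± 0.10, adjusted p = 0.0239) and the chaperone Hsp90aa1, on which RIPK3 and MLKL depend, 1.40-fold lower (11.14 ± 0.19 against 11.62 ± 0.15, adjusted p = 0.0406). Uhrf1 and Dnmt1 also serve dividing cells, and genes of cell division, looked at after the values were seen, were lower too: Mki67 by -1.54 (adjusted p = 0.0129), Top2a by -1.41 (adjusted p = 0.00881) and Aspm by -1.63 (adjusted p = 0.000304). The part of cell division in the Uhrf1 and Dnmt1 values was not tested. Ipmk differed by 0.38 with its brighter probe sets and 0.27 with its brightest (adjusted p = 0.125 and 0.301), and with the brighter ones Flot1 (0.36, adjusted p = 0.0506) and Uhrf1 (-0.76, adjusted p = 0.0564) did not pass. Ppm1b differed by -0.11 with its brighter probe sets, and Dnmt1 by -2.00 with its brightest (adjusted p = 0.431). The Dnmt1 call was lost without Tak1/Casp8 replicate 1, 2 or 3 or Tak1/Rip3 replicate 1 or 3 (adjusted p up to 0.0729), and Hsp90aa1 without those or Tak1/Rip3 replicate 4 (up to 0.119).

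Around ZBP1 and TLR3, 1 of 17 measured genes of nucleic acid sensing and interferon signalling was higher. Ifnar2, a chain of the interferon receptor, was 1.28-fold higher (11.72 ± 0.05 SD against 11.37 ± 0.07, adjusted p = 0.0333), a call lost without any 1 of 7 arrays, all but Tak1/Casp8 replicate 4 (adjusted p up to 0.0961). The double-stranded RNA sensor Ifih1 differed by -0.26 ± 0.09 (adjusted p = 0.105), Stat2 by -0.20 ± 0.08 (adjusted p = 0.213) and Mavs by 0.18 ± 0.13 (adjusted p = 0.466). Among 7 genes around the NOD receptors and RIPK2, the lysosomal peptide carrier Slc15a3 was 1.59-fold lower (9.26 ± 0.19 against 9.93 ± 0.14, difference -0.67 ± 0.12, adjusted p = 0.01). Atg16l1, Erbin and Slc15a4 differed by -0.27, 0.20 and 0.20 and did not pass.

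Of 5 genes for signals that dying cells release and their receptor, Clec4e passed. Clec4e, the macrophage receptor Mincle for a protein set free by dead cells, had 6.74, 6.72, 6.56 and 6.52 in the Tak1/Casp8 livers and 5.39, 5.24, 5.41 and 5.39 in the Tak1/Rip3 livers. The groups were far apart and each was tight (1.28 ± 0.09, adjusted p = 1e-04), but the Tak1/Rip3 values lay under the lower quartile of the arrays, and the brighter probe sets gave 0.57 ± 0.11 and the brightest 0.18 ± 0.15 (adjusted p = 0.581). The cytokine Il1a, held inside cells until they rupture, had 8.55, 8.14, 8.28 and 8.48 against 9.01, 9.17, 8.54 and 8.92 (-0.55 ± 0.15, adjusted p = 0.0541), and passed under the same settings as Tnfrsf10b (adjusted p = 0.023 to 0.0438). Hmgb1 and Sap130 differed by -0.23 and 0.13.

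**Figure D4:**
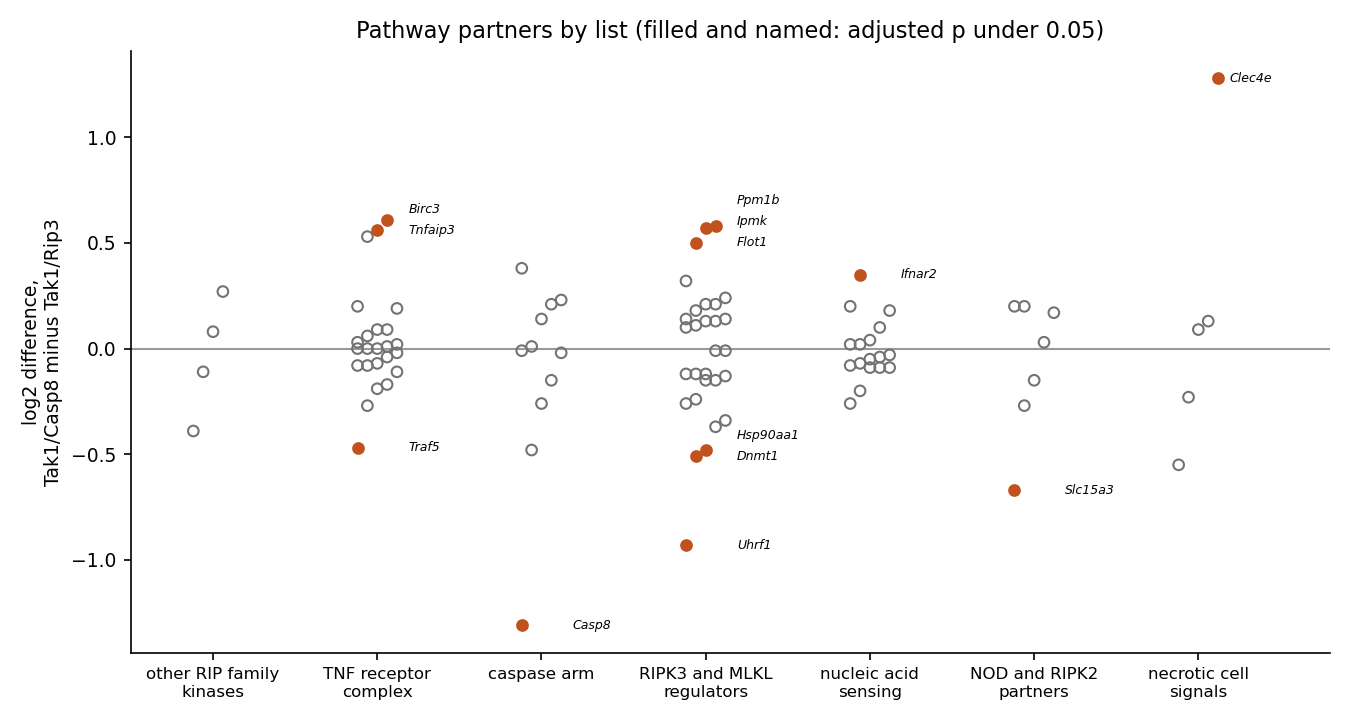
Log2 difference, Tak1/Casp8 minus Tak1/Rip3 (y axis), of the 97 measured partner genes in 7 lists (x axis). The 13 genes called at an adjusted p under 0.05 are filled and named, from Casp8 at -1.31 to Clec4e at 1.28.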

How the data were processed

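Liver RNA of 8 mice was measured on 1 Affymetrix mouse gene array each, and the genotype labels set the groups. The deposited values are log2 intensities per probe set, which the authors made with RMA, per the submitters' processing notes. RMA compresses differences near the background. Arrays have no depth, and their number limits the precision. Of 223771 probe sets, 206316 had 1 symbol in the platform annotation, and 2571 old symbols were updated from a RefSeq table of GRCm38.p6. A gene's value was the median over its probe sets. Groups were compared over all 8 arrays in limma 3.58.1 (R 4.3.3; lmFit, eBayes, two-sided), with Benjamini-Hochberg adjustment over all 19560 genes or all probe sets, called under 0.05. The same was done for single probe sets, and diffSplice compared each with the rest of its gene. The tests were tested on simulated data. Figures used matplotlib 3.10.9.

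Members, gene lists and tests were chosen with earlier results of these data known. Named genes are the members, the targeted genes, the 4 partners per list with the smallest adjusted p, 5 neighbours on each side of Ripk3 and the 5 most similar profiles of Ripk3 and of the other member with the largest difference. Dnmt1, Hsp90aa1, Tet2, Tnf, Tnip1, Irf1, Cflar, Ifnb1, the cell division genes and the single markers were named after their values were seen. Alternatives were other normalisations, probe set summaries, filters, variance models, thresholds and omission of arrays. Some genes of the partner and marker lists are not reported here. No label gives a litter or a hybridisation day, and replicate numbers only name arrays. DiffSplice called probe sets beyond those shifted in simulated data, where noise was drawn separately for each probe set. That check does not show how often diffSplice errs. A fit on deviations, with a variance for each probe set, was added after it and printed beside diffSplice.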

Additional observations from a re-analysis of the deposited data

Results flagged for a closer look

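In 40 groups of 4 values (the 10 members and the 10 Ripk3 probe sets in each genotype), Dixon's test set 1 array apart in 5, and chance flags about 1 in 20. Of these, 4 concern Ripk3 in Tak1/Rip3 replicate 1, which share that array and, in part, the same probe sets. The gene value of Ripk3 there was 6.36, against 7.04 to 7.18 in the other 3 knockouts. The second probe set had 6.32 (7.01 to 7.14), the third 6.36 (7.02 to 7.09) and the tenth 6.36 (7.21 to 7.33). The fifth concerns the seventh Ripk3 probe set, at 5.83 in Tak1/Casp8 replicate 4 against 6.49 to 6.59 in the rest of that group, all close to the lower quartile of the arrays.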

How the results depend on the processing

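No paired analysis was possible because the labels give no replicate numbers that tie mice of one group to mice of the other. Only Ripk3 was called among the members under each of the normalisations, the brighter probe sets, the filter at the 30th percentile, the trend and robust fit, array weights, both other thresholds, the omission of each array in turn (1 to 1 called) and that of both least correlated arrays, which was added after seeing the data. The mean over probe sets called 2 (Ripk3 and Cyld). In limma 0 were called with the brightest probe set (2 at an unadjusted p under 0.05) and with the filter at the 50th percentile, which removed Ripk3 (3 of 8), and 0 in a Welch test (4). The Ripk3 difference was -0.04 with the brightest probe set and 0.98 in the Welch test (adjusted p = 0.150). It ranged from 0.80 to 1.07 over the omitted arrays. Of its probe sets 0 were called in limma with the filter at the 50th percentile (0 of the 2 left at an unadjusted p under 0.05), 0 in the Welch test (8) and 0 at a threshold of 0.01 (8), while 3 (the first, the ninth and the tenth) were called with the filter at the 30th percentile, 6 at 0.10 and 1 to 3 without single arrays. DiffSplice called 0 with either filter (2 of 7 and 0 of 2 left at an unadjusted p under 0.05), 1 at 0.01, 1 without both least correlated arrays, 1 to 2 without single arrays, and the fit on deviations, also added after seeing the data, called 0 (4). DiffSplice offers no trend, so only its robust setting was run. Of the partners (13 called in the main analysis) 2 were called with the brightest probe set, 6 with the brighter ones, 4 in the Welch test, 4 at 0.01 and 8 to 11 without single arrays, but 16 and 15 with the filters at the 30th and 50th percentile, 16 with the trend and robust fit, 17 with array weights and 17 at 0.10. Ppm1b turned to -0.11 with the brighter and Traf5 to 0.10 with the brightest probe sets. The causes were not tested. Among the recomputed differences of the members 9 more changed sign or reached 0, none of them called. Signal near background limits the dim Ripk3, Tlr3 and Clec4e probe sets.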
